A study of Mus musculus with 28 samples.

Results

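The genes described here are 49 genes of the E2F pathway and of DNA replication, among 19938 genes that the array names with 1 symbol. They were taken by symbol from the array's annotation. Pcna and E2f3 (2 of the 49 genes) had more than 1 probe set, and the one brightest on average across the 28 arrays was kept. All 49 are on the array and all 49 passed the filter on low values. They divide by role into the MCM helicase (6 genes), its loading factors (3), the origin recognition complex (6), helicase activation (8), fork polymerases, primase and clamp (6), the clamp loader (5), ribonucleotide reductase (2), the activator E2Fs (3), the other E2Fs (5), and cyclins, Cdk2 and Cdc25a (5).

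The study measured mouse embryonic stem (ES) cells on 28 expression arrays in 9 groups. Untransduced lines were a Dicer+/+ line (2 arrays, called the Dicer WT line here) and a Dicer-/- line (3 arrays, the Dicer-null line). Every other group was made in Dicer-/- ES cells carrying a puromycin vector. Vector pLD-puro-ENvA carried eGFP (3 arrays), wild-type DICER1 (4 arrays), D1709A (4 arrays), E1705K (3 arrays) or D1810Y (3 arrays), and vector pLD-puro-PGKnvA carried wild-type DICER1 (2 arrays), D1709N (2 arrays) or E1813Q (2 arrays). The named substitutions are DICER1 hotspot mutations, which lie in the RNase IIIb domain of the enzyme that cuts microRNA precursors. All cells grew in ES cell medium and were collected in log phase. The labels do not say whether arrays of a group came from separate cultures, so p-values measure only the spread between these arrays, and they name 1 ES cell line for each Dicer genotype.

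E2F transcription factors bind GC-rich sites in the promoters of genes needed to enter S phase and to copy DNA. Retinoblastoma-family proteins hold them back until cyclin D and cyclin E kinases release them. At an origin, the origin recognition complex recruits Cdc6 and Cdt1, which load the MCM helicase; the Cdc7-Dbf4 kinase, Cdc45 and the GINS complex then activate it, and primase, the polymerases, the PCNA clamp and its loader copy the DNA. ES cells divide fast with a short G1 phase, and microRNAs made through Dicer are known to act on their G1 to S phase regulators.

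Sequences of the promoters were searched for E2F-type letters, since E2F binding at the promoter is what the genes of this pathway are known for. RefSeq promoter windows (assembly GRCm38.p6, from 250 bases before to 50 bases after the start, 300 bases long) were found for 38 of the 49 genes. An E2F-type match, meaning TTTCCCGC, TTTGGCGC, TTTGCCGC or TTTCGCGC on either strand, was in a window of 17 of the 38 (44.7%), against 704 of 27025 genes of the promoter table (2.6%). CCAAT on either strand was in 25 of the 38 (65.8%) against 41.1% of all genes, and TTTGAA on either strand was in 8 of the 38 (21.1%) against 20.2%. A match is a description of the letters and not a measured binding site. The following stretches were chosen after the expression values were seen, as examples of genes with a match in the bases before the start that rose, fell or were not called between the Dicer lines; Mcm6 holds the most matches (3, of which 2 overlap). Other genes with a match, such as Cdt1 and Cdc25a, are not printed. They are written 5′ to 3′ along the gene's own strand, with the E2F-type match in capitals: Orc1 at chr4:108579334-108579453 on the plus strand, Orc3 at chr4:34614943-34615062 on the minus strand, Gins3 at chr8:95633439-95633558 on the plus strand, Pola1 at chrX:93632230-93632349 on the minus strand, Mcm6 at chr1:128359706-128359825 on the minus strand, Mcm7 at chr5:138171985-138172104 on the minus strand, E2f7 at chr10:110745189-110745304 on the plus strand, E2f3 at chr13:29986064-29986183 on the minus strand and Cdk2 at chr10:128705128-128705247 on the minus strand.
Orc1: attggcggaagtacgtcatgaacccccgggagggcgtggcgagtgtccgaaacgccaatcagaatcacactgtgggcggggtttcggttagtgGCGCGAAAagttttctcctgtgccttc
Orc3: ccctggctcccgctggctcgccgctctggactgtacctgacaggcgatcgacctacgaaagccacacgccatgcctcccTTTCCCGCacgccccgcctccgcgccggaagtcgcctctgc
Gins3: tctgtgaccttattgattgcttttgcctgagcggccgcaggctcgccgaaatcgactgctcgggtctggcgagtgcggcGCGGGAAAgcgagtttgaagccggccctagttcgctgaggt
Pola1: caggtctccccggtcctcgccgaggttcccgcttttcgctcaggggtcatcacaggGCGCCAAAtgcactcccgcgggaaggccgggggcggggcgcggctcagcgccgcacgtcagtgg
Mcm6: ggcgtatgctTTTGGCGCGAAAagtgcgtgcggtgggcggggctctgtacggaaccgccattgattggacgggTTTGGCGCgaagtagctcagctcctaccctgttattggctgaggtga
Mcm7: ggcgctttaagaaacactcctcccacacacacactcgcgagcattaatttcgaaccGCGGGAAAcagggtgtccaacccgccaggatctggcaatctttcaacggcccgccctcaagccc
E2f7: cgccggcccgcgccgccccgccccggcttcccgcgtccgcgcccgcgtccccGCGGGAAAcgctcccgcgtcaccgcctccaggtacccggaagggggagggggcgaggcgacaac
E2f3: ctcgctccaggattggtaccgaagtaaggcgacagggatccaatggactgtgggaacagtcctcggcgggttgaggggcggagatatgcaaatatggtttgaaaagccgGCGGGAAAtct
Cdk2: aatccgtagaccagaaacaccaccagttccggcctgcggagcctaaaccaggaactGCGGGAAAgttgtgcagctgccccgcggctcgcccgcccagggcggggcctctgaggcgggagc

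The match lies within 50 bases before the start in Orc1 (its first base 27 bases upstream), Orc3 (41), Gins3 (41), Mcm6 (47 for the nearest) and E2f3 (11), and farther upstream in Pola1 (138), Cdk2 (140), Mcm7 (165) and E2f7 (198). The Mcm7 window holds a further match, TTTCGCGC, that begins 16 bases after the start and lies outside the printed stretch. In the Dicer-null line against the Dicer WT line, Orc1, Orc3, Gins3, Pola1 and Mcm6 were lower, E2f7, E2f3 and Cdk2 were higher and Mcm7 was not called. Over all genes with a window, a match was present in 8 of 21 genes that fell in the Dicer-null line, in 4 of 6 that rose and in 5 of 11 that were not called.

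The targeted gene behaved as labelled between the untransduced lines: Dicer1 stood at 10.68 ± 0.05 (SD, n = 2) in the Dicer WT line and 9.27 ± 0.04 (SD, n = 3) in the Dicer-null line, while the vector groups, WT DICER1 included, stood between 8.91 and 9.39; this probe set therefore gives no check of the transgene labels. All values are log2 levels; array medians ran from 7.14 to 7.27. All 10 ES cell markers were detected, with list means of 11.86 to 12.28 by group. Fibroblast markers (11 on the array) had list means of 6.31 to 6.97, trophoblast markers 8.09 to 8.79, endoderm markers 7.31 to 7.60 and neural markers 7.67 to 8.31. Fewer cells of a type and less RNA per cell cannot be told apart in such samples. The deposited values carry exact relations: arrays fall into 4 sets whose mean deviations from the groups are 0 within 9.74e-05, and no source used here names the step that made them so. Of these, array 4 of D1709A and array 4 of WT DICER1 form a set of their own, stand apart from their groups and deviate by equal amounts in opposite directions, within 1.33e-04. WT DICER1 means under both vectors are equal within 7.5e-05, so vectors cannot be compared. A fit with the sets as a block gives the same estimates with 16 in place of 18 residual degrees of freedom, and counts of members are also given without both arrays 4 for each comparison that uses them.

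**Figure D1:**
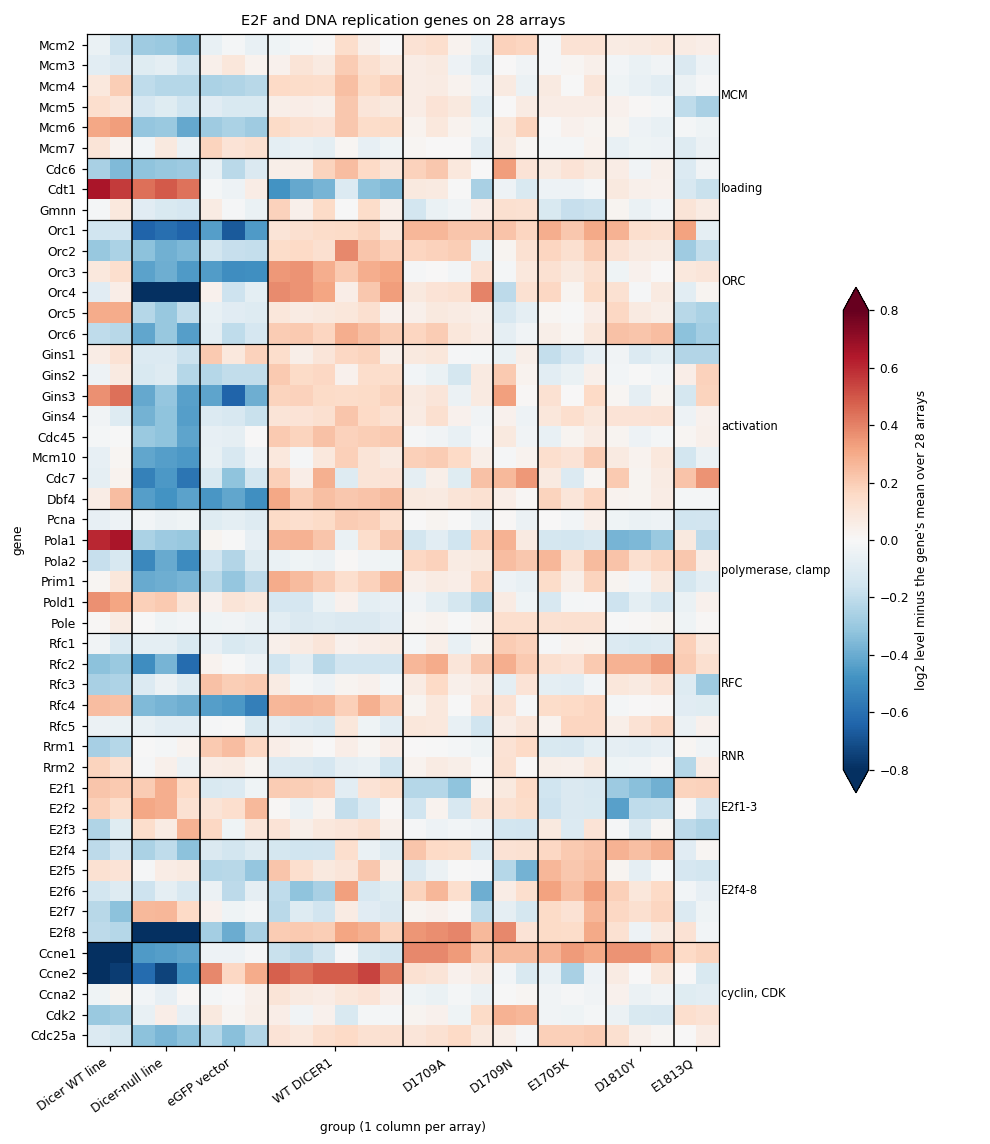
Log2 level of each of the 49 genes minus its mean over the 28 arrays, 1 column per array, with genes grouped by role (vertical lines separate the 9 groups; colour is cut off at 0.8 in both directions). The Dicer-null columns are blue for most replication genes, the WT DICER1 columns are red for most of them, and Ccne1 and Ccne2 are lowest in the Dicer WT line.

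Averaged over the 49 genes on each array, the level was lowest in the Dicer-null line (10.48 ± 0.02, SD, n = 3) and next lowest in the eGFP vector group (10.60 ± 0.03, SD, n = 3). It was 10.67 in the Dicer WT line (SD 0.01, n = 2) and 10.67 in E1813Q (n = 2), 10.72 ± 0.02 in D1810Y (SD, n = 3), 10.75 ± 0.03 in D1709A (SD, n = 4), 10.76 ± 0.03 in E1705K (SD, n = 3), 10.77 ± 0.02 in D1709N (SD, n = 2) and 10.78 ± 0.02 in WT DICER1 (SD, n = 6). The Dicer-null arrays (10.46 to 10.50) and the eGFP arrays (10.57 to 10.62) overlapped neither each other nor any other group, whereas D1709A, D1709N, E1705K and WT DICER1 overlapped.

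The Dicer-null line was compared with the Dicer WT line, and with 1 line of each, genotype and line cannot be told apart. Of the 49 genes, 26 fell and 7 rose at a Benjamini-Hochberg adjusted p under 0.05 in limma's test; among all 13956 genes tested, 27.2% fell and 30.7% rose, so the members that fell make up a larger share (53.1%) and those that rose a smaller one (14.3%). The median difference was -0.17 over the 49 genes and 0.01 over all genes tested. Between arrays of a group, members spread less than all genes tested in each of the 9 groups (median SD 0.056 against 0.075 in WT DICER1). Smaller changes can thus be called among members, and shares here and in later comparisons were not matched for spread. With each array centred on its own median, the split was 20 lower and 8 higher among the members and 2893 lower and 5233 higher among all genes, in place of 3792 lower and 4283 higher.

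The initiation machinery carried most of the falls. All 8 helicase activation genes fell, as did 5 of 6 subunits of the origin recognition complex (all but Orc2), 4 of 6 MCM subunits (all but Mcm3 and Mcm7) and 4 of 6 polymerase genes, and none of these 26 genes rose. Pola1, the catalytic subunit of polymerase alpha, which starts DNA strands with primase, read 9.78, 9.74 and 9.73 on the Dicer-null arrays and 10.63 and 10.69 on the Dicer WT arrays. Orc4, an ATPase subunit of the origin recognition complex, read 8.74, 8.74 and 8.67 against 9.45 and 9.60. Gins3, a subunit of the GINS complex, read 8.69, 8.79 and 8.67 against 9.46 and 9.54. The groups did not overlap for any of the 3 genes, and the Dicer-null arrays were the lower ones. Pola1 fell by 0.91 (SE 0.09, adjusted p = 6.77e-09), Orc4 by 0.81 (SE 0.10, adjusted p = 1.52e-07) and Gins3 by 0.79 (SE 0.09, adjusted p = 2.88e-08) on the log2 scale. Other falls included Mcm6 (by 0.66), Rfc4, a clamp loader subunit (by 0.61), Dbf4, the activator of the Cdc7 kinase (by 0.60), Orc3 (by 0.54), Orc1 (by 0.47) and Prim1, the catalytic subunit of primase (by 0.44).

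The loading factors Cdc6, Cdt1 and Gmnn, which encodes the Cdt1 inhibitor geminin, were not called (0.00, -0.15 and -0.15). Among cyclin and kinase genes Ccne1, Ccne2 and Cdk2 rose and Cdc25a, the phosphatase that activates Cdk2, fell by 0.22. Ccne1, which encodes cyclin E1, read 11.46, 11.47 and 11.48 on the Dicer-null arrays and 11.00 and 10.94 on the Dicer WT arrays. Cdk2, the kinase that cyclin E switches on, read 10.84, 10.95 and 10.83 against 10.60 and 10.62. Every Dicer-null array was above both Dicer WT arrays for these genes; Ccne1 rose by 0.50 (SE 0.05, adjusted p = 2.82e-09) and Cdk2 by 0.27 (SE 0.05, adjusted p = 8.09e-05).

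The E2F genes split. E2f7, an atypical repressor, read 10.09, 10.10 and 9.99 on the Dicer-null arrays against 9.61 and 9.51 on the Dicer WT arrays. E2f8, the other atypical repressor, read 8.88, 8.80 and 8.78 against 9.53 and 9.51. E2f3, an activator, read 10.26, 10.18 and 10.39 against 9.87 and 10.02. None of the 3 genes overlapped between the lines, and of the 3 it was E2f8 that was lower in the Dicer-null line. E2f7 rose by 0.51 (SE 0.07, adjusted p = 1.1e-06), E2f3 rose by 0.33 (SE 0.07, adjusted p = 0.000132) and E2f8 fell by 0.70 (SE 0.07, adjusted p = 6.82e-09), while E2f1, E2f2, E2f4, E2f5 and E2f6 were not called (-0.08 to 0.07). The second probe set of E2f3 differed by 0.17 between the lines.

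Other genes of the pathway were read from lists of the same kind. Of 28 further fork and licensing genes, 14 fell and 3 rose: Mcm8, a helicase of repair, fell by 0.90, and Lig1, the ligase of lagging strands, by 0.58. Of 21 regulators of retinoblastoma proteins and E2F, 7 rose and 4 fell, with Ccnd2 (cyclin D2) up by 2.45, Rbl2 (p130) by 1.30 and Ccnd1 (cyclin D1) by 1.03. Cdkn2b rose by 1.19 and Cdkn2a by 0.71, both inhibitors of cyclin D kinases, among 5 inhibitor genes tested. Of 14 nucleotide supply and chromatin assembly genes tested, 7 fell and 4 rose, with Hells, a chromatin remodeller, lower by the widest margin (fell by 1.24), and the proliferation antigen Mki67 (fell by 1.15) was among 11 of 21 G2 and M phase genes that fell, where 6 rose. Neural markers moved with this comparison (3 of 5 tested rose, none fell, list mean 7.67 in the Dicer WT line and 8.31 in the Dicer-null line); their part in the result was not tested.

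**Figure D2:**
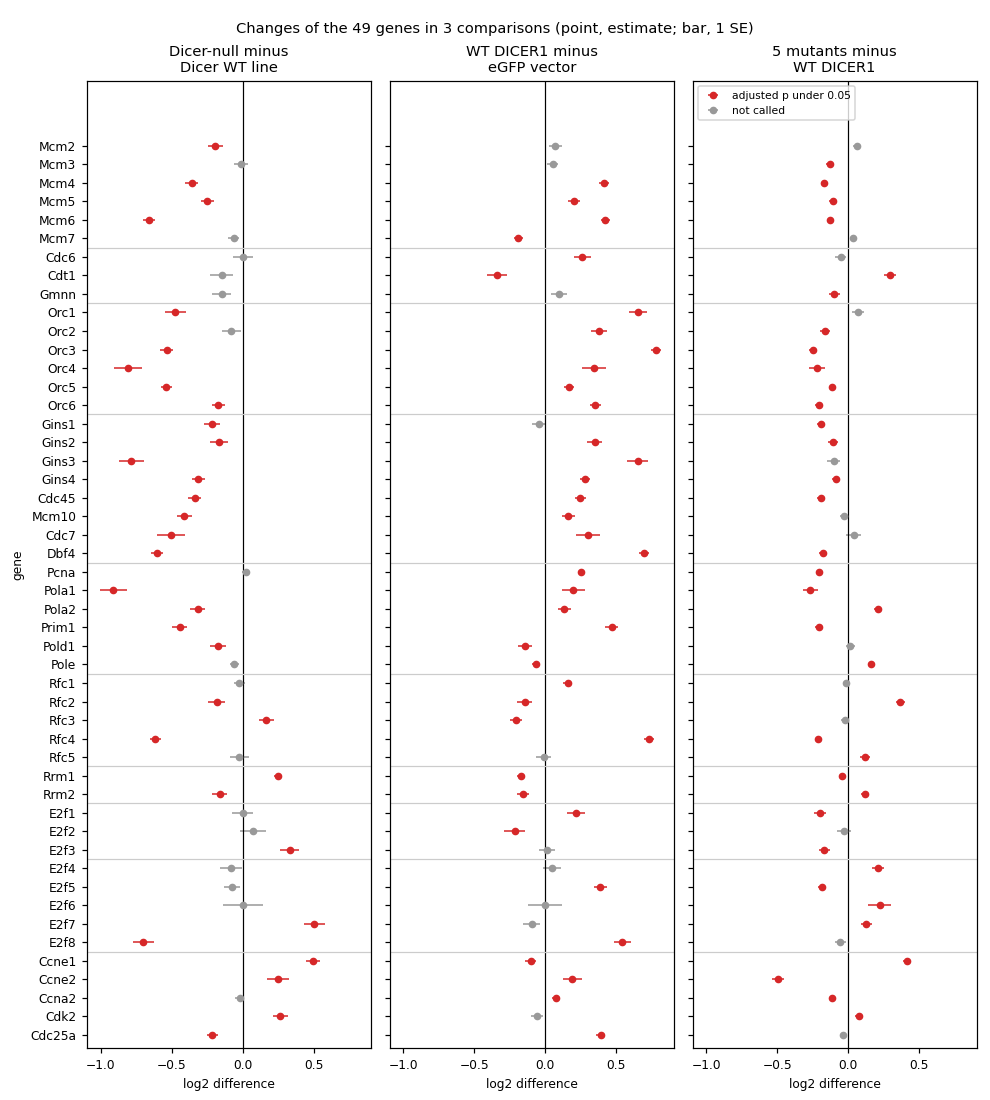
Log2 difference of each of the 49 genes (point) with 1 SE (bar) in 3 comparisons, red where the adjusted p is under 0.05 and grey where it is not. In the left panel 26 genes lie below 0 in red, in the middle panel 29 lie above 0 in red and in the right panel 25 lie below 0 in red.

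The eGFP vector group was compared with the Dicer-null line it was made from; transduction, selection and eGFP cannot be told apart here. Against the Dicer-null line, the eGFP vector group had 22 members higher and 5 lower, where 20.2% of all genes were higher and 27.4% lower; the member median was 0.11 and that of all genes -0.03. Centring each array made this 17 higher and 9 lower among members and 2152 higher and 4897 lower among all genes, in place of 2822 and 3823. Ccne2, which encodes cyclin E2, read 9.92, 9.70 and 9.84 with the eGFP vector and 8.92, 8.80 and 9.06 without it. Orc4 read 9.58, 9.38 and 9.46 with the vector against 8.74, 8.74 and 8.67. Cdt1 read 10.96, 10.93 and 11.03 against 11.41, 11.46 and 11.41. All eGFP arrays lay above the Dicer-null arrays for Ccne2 and Orc4 and below them for Cdt1. E2f1, an activator, read 10.25, 10.26 and 10.33 with the vector and 10.57, 10.66 and 10.53 without it, again with no overlap. Ccne2 rose by 0.90 (SE 0.07, adjusted p = 9.29e-11), Orc4 rose by 0.76 (SE 0.09, adjusted p = 1.34e-07), Cdt1 fell by 0.46 (SE 0.07, adjusted p = 9.83e-06) and E2f1 fell by 0.31 (SE 0.07, adjusted p = 0.000574). Orc1, Orc3, Gins3 and Dbf4 were not called (-0.10 to 0.11). Of the 28 further fork and licensing genes 8 rose and 7 fell (median -0.01), of 14 nucleotide and chromatin genes 6 rose and 3 fell, and of 21 retinoblastoma and E2F regulators 5 rose, Ccnd2 by 1.37 among them, and 4 fell. Of 21 G2 and M phase genes 11 rose, Mki67 by 1.18 among them, and 2 fell. Of 10 ES cell markers 6 fell and 1 rose (list mean 12.25 in the Dicer-null line, 12.05 with eGFP), and of 5 neural markers 3 fell and 2 rose; their part in the result was not tested.

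Wild-type DICER1 against the eGFP vector compares cells that share the Dicer-/- background and carry a puromycin vector. Since eGFP was carried by ENvA only, the fit with a vector term sets it against the 4 ENvA WT DICER1 arrays. Levels are given over all 6 WT DICER1 arrays, whose means under both vectors are equal within 7.5e-05. Of the 49 genes, 29 rose and 10 fell, where 30.8% of all genes rose and 28.7% fell, and the median was 0.16 over the members and 0.02 over all genes. All 6 origin recognition subunits rose, as did 7 of 8 helicase activation genes (all but Gins1) and none of these 14 fell. Without both arrays 4 the member counts were 29 higher and 12 lower, and those of all genes 4554 and 4410, in place of 4301 and 4006. Of the 26 members that fell in the Dicer-null line, 21 rose here (80.8%), which is 72.4% of the 29 that rose; no array enters both comparisons. Over all genes tested, 2316 fell there and rose here, 61.1% of those that fell and 53.8% of those that rose. The 21 are Mcm4, Mcm5 and Mcm6; Orc1, Orc3, Orc4, Orc5 and Orc6; Gins2, Gins3, Gins4, Cdc45, Mcm10, Cdc7 and Dbf4; Pola1, Pola2 and Prim1; Rfc4; E2f8; and Cdc25a.

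Orc3, a subunit of the origin recognition complex, read 10.87, 10.82 and 10.83 with the eGFP vector and from 11.53 through a median of 11.62 to 11.68 on the 6 WT DICER1 arrays. Rfc4 read 11.86, 11.84 and 11.76 against 12.50, median 12.57 and 12.59. Dbf4 read 11.08, 11.13 and 11.06 against 11.74, median 11.78 and 11.86. For these 3 genes the highest eGFP array lay well below the lowest WT DICER1 array. Orc3 rose by 0.78 (SE 0.04, adjusted p = 3.98e-15), Rfc4 by 0.73 (SE 0.03, adjusted p = 1.13e-15) and Dbf4 by 0.70 (SE 0.04, adjusted p = 1.96e-14), or 1.71-fold, 1.66-fold and 1.62-fold. Orc1, an ATPase subunit, read 9.59, 9.36 and 9.58 against 10.12, median 10.17 and 10.21, a rise of 0.66 (SE 0.06, adjusted p = 2.25e-09). Gins3 rose by 0.65, E2f8 by 0.54, Prim1 by 0.47, Mcm6 by 0.42 and Pcna, the clamp, by 0.25; the 2 probe sets of Pcna, which name the same transcripts, both differed by 0.25.

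**Figure D3:**
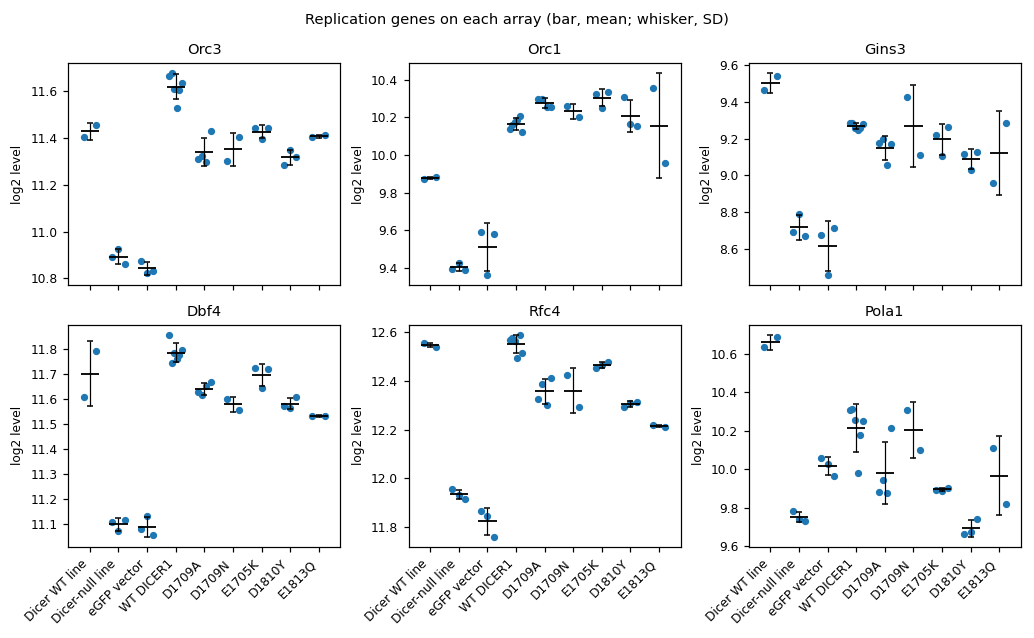
Log2 level of Orc3, Orc1, Gins3, Dbf4, Rfc4 and Pola1 on each array (point), with the group mean (bar) and SD (whisker), for the 9 groups. For the first 5 genes the Dicer-null and eGFP points lie together at the bottom and the transgene groups lie higher, while Pola1 is highest in the Dicer WT line (10.66).

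The 10 members that fell with WT DICER1 were Mcm7, Cdt1, Pold1, Pole, Rfc2, Rfc3, Rrm1, Rrm2, E2f2 and Ccne1. Cdt1, the loading factor, read 10.96, 10.93 and 11.03 with the eGFP vector and 10.50, median 10.61 and 10.86 with WT DICER1, the highest being array 4. E2f2, an activator, read 7.82, 7.86 and 7.98 against 7.53, median 7.70 and 7.75. Rfc3, a clamp loader subunit, read 10.99, 10.96 and 10.97 against 10.72, median 10.76 and 10.82. Each WT DICER1 array was below each eGFP array in these 3 genes. So it was for Mcm7, an MCM subunit, which read 12.60, 12.53 and 12.55 against 12.34, median 12.35 and 12.44. Cdt1 fell by 0.34 (SE 0.07, adjusted p = 0.000107), E2f2 by 0.22 (SE 0.07, adjusted p = 0.0153), Rfc3 by 0.21 (SE 0.04, adjusted p = 0.000227) and Mcm7 by 0.19 (SE 0.03, adjusted p = 1.82e-05). E2f2 was no longer called without eGFP array 3 (adjusted p = 0.0964) or without WT DICER1 array 4 (0.0607). Rrm1 and Rrm2, the subunits of ribonucleotide reductase, fell by 0.17 and 0.16. Pola1 (rise of 0.20) and Ccne1 (fall of 0.10) were no longer called with the array sets as a block (adjusted p = 0.0625 and 0.06).

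The further lists moved as follows with WT DICER1. Of 28 fork and licensing genes 18 rose and 2 fell; Ticrr, a factor that loads Cdc45, rose by 0.93 and Tipin, of the fork protection complex, by 0.68. Of 21 retinoblastoma and E2F regulators 8 rose and 9 fell, with Ccnd2 down (fell by 2.09), Ccnd1 down (fell by 1.23), Rbl2 down (fell by 0.94) and Myc up by 1.39. Of 21 G2 and M phase genes 11 rose and 3 fell, and of 14 nucleotide and chromatin genes 8 rose and 3 fell. Markers moved here too: of the tested genes, 4 of 7 fibroblast markers, 5 of 7 trophoblast markers and 3 of 6 endoderm markers rose, 3 of 5 neural markers fell, and the fibroblast list mean was 6.46 with eGFP and 6.97 with WT DICER1. Their part in the result was not tested.

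Wild-type DICER1 did not return all members to the level of the Dicer WT line. Against that line, 25 members were higher and 10 lower with WT DICER1 (all genes: 28.1% higher, 24.8% lower), with a median of 0.12 against 0.02. Without both arrays 4 the counts were 27 and 11, and those of all genes 4211 and 3845, in place of 3920 and 3466. Ccne2 read 9.94, median 10.02 and 10.08 with WT DICER1 and 8.57 and 8.78 in the Dicer WT line. Ccne1 read 11.70, median 11.76 and 11.90 against 11.00 and 10.94. Cdt1 read 10.50, median 10.61 and 10.86 against 11.63 and 11.53. No array overlapped in these 3 genes, with the cyclin E genes higher and Cdt1 lower with the transgene. Ccne2 was higher by 1.34 (SE 0.07, adjusted p = 1.06e-13), Ccne1 by 0.80 (SE 0.05, adjusted p = 2.5e-13), Cdt1 was lower (-0.95, SE 0.08, adjusted p = 1.38e-10) and Pola1 was lower (-0.45, SE 0.09, adjusted p = 0.00015). Rfc4 stood at 12.55 in both groups (difference 0.00) and Mcm4 and Mcm5 were not called (0.03 and -0.03). The Dicer WT line was never transduced, so vector, selection and transgene cannot be told apart in this comparison. Of the tested markers, 4 of 7 for fibroblasts were higher (up to 2.54) and 0 lower, 5 of 7 for trophoblast were higher and 2 lower, and 5 of 10 for ES cells were lower (down to -1.08) and 4 higher; their part in the result was not tested.

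Whether the untransduced pair and the vector pair gave unlike effects was tested directly, as the Dicer-null line minus the Dicer WT line less the eGFP vector minus WT DICER1. The difference was positive for 13 members and negative for 13 (all genes: 24.7% positive, 18.1% negative), with a member median of -0.03 and 0.04 over all genes. Centred arrays gave 18 positive and 11 negative members (all genes: 3916 and 2101, in place of 3448 and 2532). Leaving out both arrays 4 gave 16 and 14 (all genes: 3958 and 3093). Pola1 had the most negative value (-0.71, SE 0.12, adjusted p = 3.82e-05), followed by Cdt1 (-0.49, SE 0.11, adjusted p = 0.000487), and Ccne2 (0.44, SE 0.10, adjusted p = 0.000968) and E2f7 (0.41, SE 0.09, adjusted p = 0.000841) the most positive. For Pola1 the Dicer-null line differed from the Dicer WT line by -0.91, and WT DICER1 from the eGFP vector by 0.20. For Orc1 (0.18), Gins3 (-0.13), Dbf4 (0.09), Rfc4 (0.11), Prim1 (0.02), Cdc45 (-0.09) and E2f8 (-0.16), named after their values were seen, the difference of effects was not called.

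Against the same 3 eGFP arrays, the 5 hotspot mutants averaged with equal weight had 26 members higher and 8 lower, where 29.3% of all genes were higher and 23.8% lower; the median was 0.13 over the members and 0.02 over all genes. Without both arrays 4 the counts were 29 and 9, and those of all genes 4527 and 3784, in place of 4090 and 3317. Since WT DICER1 was compared with those eGFP arrays too, the values are set side by side and no overlap is read from them. Orc1 was higher by 0.73 in the mutants (SE 0.06, adjusted p = 2.26e-10) and by 0.66 with WT DICER1. Gins3 was higher by 0.55 (SE 0.07, adjusted p = 3.53e-07) and by 0.65, Dbf4 by 0.52 and 0.70, Orc3 by 0.53 and 0.78, and Rfc4 by 0.52 and 0.73. Ccne2 was lower in the mutants (-0.31, SE 0.06, adjusted p = 0.000185) and higher by 0.19 with WT DICER1, and Ccne1 was higher by 0.31 in the mutants and lower (-0.10) with WT DICER1. E2f2 was lower in both (-0.24, SE 0.07, adjusted p = 0.00564, and -0.22); the mutant call was lost without eGFP array 3 (adjusted p = 0.0505). All 7 trophoblast markers tested were higher in the mutants than with the eGFP vector; their part in the result was not tested.

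The direct comparison of mutant with wild-type transgene used 14 mutant and 6 WT DICER1 arrays. Of the 49 genes, 25 were lower and 11 higher in the mutants, where 27.7% of all genes were lower and 32.3% higher; the member median was -0.09 and that of all genes 0.01. Within the ENvA arrays the counts were 20 lower and 11 higher (all genes: 3482 and 4085, in place of 3871 and 4512). Within the PGKnvA arrays they were 21 lower and 10 higher (all genes: 2916 and 3267). Without both arrays 4 they were 25 lower and 13 higher (all genes: 4147 and 4883). Member differences ran from -0.49 to 0.41 on the log2 scale. Of the called members, 5 were past a difference of 0.26 in either direction, and how many of all genes were past it was not counted. Taken set by set (sets 1 and 2 together, set 3, set 4), the mutant minus WT DICER1 difference had the same sign throughout for 23 of 49 members (46.9%, 17 of them lower), and for 45% of all genes.

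By role, 5 of 6 origin recognition subunits were lower (all but Orc1), 5 of 8 helicase activation genes and 4 of 6 MCM subunits, and none of these 20 was higher. Not all of these falls were shared by the mutants. Orc3, Mcm4, Cdc45 and Dbf4 were lower in all 5 single mutants, but Orc2 and Mcm5 in 1 and Orc5 in 2. In sets 1 and 2 the mutants differed by 0.00 for Orc2, 0.00 for Mcm5 and -0.02 for Orc5. In set 4 they differed by -0.29, -0.19 and -0.25. Orc3 ran from 11.28 through a median of 11.37 to 11.44 on the mutant arrays and from 11.53 through 11.62 to 11.68 on the WT DICER1 arrays. Pola1 ran from 9.66 (median 9.89) to 10.31 against 9.98 (median 10.25) to 10.31. Orc4 ran from 9.33 (median 9.64) to 9.94 against 9.60 (median 9.87) to 9.92. Orc3 was thus lower on every mutant array, whereas Pola1 and Orc4 overlapped. The difference was -0.25 for Orc3 (SE 0.02, adjusted p = 2.12e-09), -0.27 for Pola1 (SE 0.05, adjusted p = 7.71e-05) and -0.22 for Orc4 (SE 0.05, adjusted p = 0.00113). Pola1 was called within the ENvA arrays (-0.36, adjusted p = 0.000109) but not within the PGKnvA arrays (-0.13, adjusted p = 0.229), and Orc4 within PGKnvA (-0.31, adjusted p = 0.00985) but not ENvA (-0.16, adjusted p = 0.0508); whether the vectors differ was not tested. Pcna (-0.20), Cdc45 (-0.19), Dbf4 (-0.18), Mcm4 (-0.17) and Rfc4 (-0.21) were lower with no overlap between mutant and WT DICER1 arrays.

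The cyclin E genes moved apart. Ccne1 ran from 12.07 through a median of 12.21 to 12.30 on the mutant arrays and from 11.70 through 11.76 to 11.90 on the WT DICER1 arrays. Ccne2 ran from 9.28 through 9.54 to 9.66 against 9.94 through 10.02 to 10.08. Neither gene overlapped: every mutant array was above every WT DICER1 array for Ccne1 and below for Ccne2. Ccne1 was higher by 0.41 (SE 0.03, adjusted p = 1.38e-12, 1.33-fold) and Ccne2 was lower (-0.49, SE 0.04, adjusted p = 2.63e-10, 0.71-fold). Ccna2, which encodes the S phase cyclin A2, was lower (-0.11) and Cdk2 was higher by 0.08. The Cdk2 rise was not shared by all mutants. Cdk2 was called higher in 1 single mutant and lower in 0, with differences from -0.08 to 0.29. Taken set by set, the Cdk2 difference ran from -0.06 to 0.28, so its sign was not the same throughout.

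**Figure D4:**
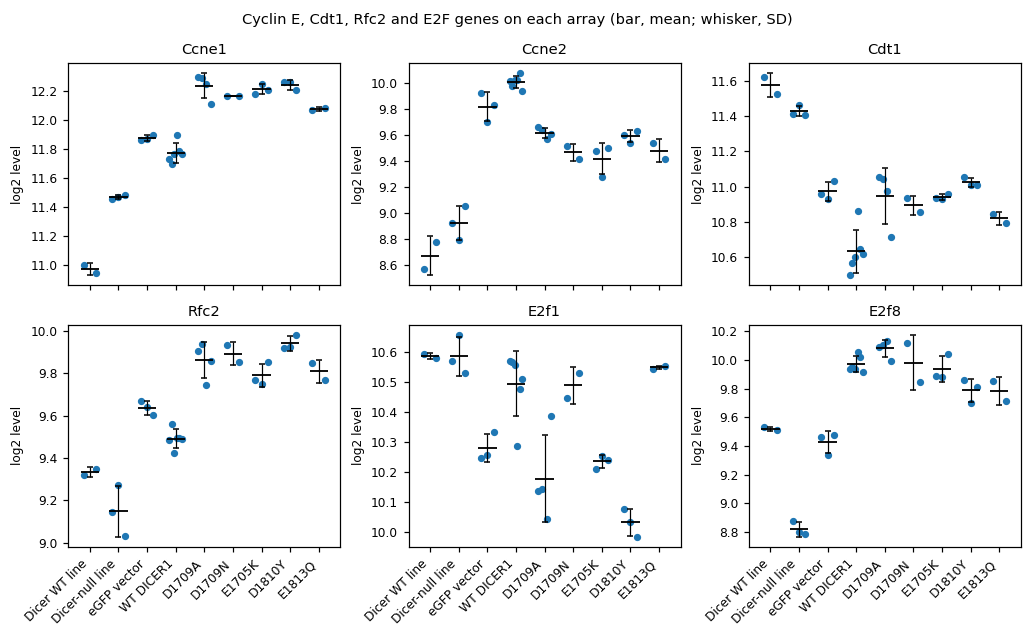
Log2 level of Ccne1, Ccne2, Cdt1, Rfc2, E2f1 and E2f8 on each array (point), with the group mean (bar) and SD (whisker), for the 9 groups. The mutant groups lie above WT DICER1 for Ccne1 and Rfc2 and below it for Ccne2, and array 4 stands apart in D1709A and WT DICER1 for Cdt1 and E2f1.

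Rfc2, a clamp loader subunit, and Cdt1 were also higher in the mutants. Rfc2 ran from 9.74 through a median of 9.86 to 9.98 on the mutant arrays and from 9.43 through 9.49 to 9.56 with WT DICER1. Cdt1 ran from 10.71 through 10.95 to 11.05 against 10.50 through 10.61 to 10.86. Rfc2 did not overlap, and Cdt1 overlapped through both arrays 4, the lowest mutant and the highest WT DICER1 array. Rfc2 was higher by 0.37 (SE 0.03, adjusted p = 8.92e-10) and Cdt1 by 0.29 (SE 0.04, adjusted p = 2.66e-06), or 0.36 (adjusted p = 1.41e-14) without both arrays 4. Pola2, the second subunit of polymerase alpha, was higher by 0.21 and Pole, the leading-strand polymerase, by 0.16.

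Among the E2F genes, E2f4, E2f6 and E2f7 were higher in the mutants and E2f1, E2f3 and E2f5 lower. E2f6, a repressor that acts without retinoblastoma proteins, ran from 9.55 through a median of 10.09 to 10.27 on the mutant arrays and from 9.62 through 9.78 to 10.27 with WT DICER1. Array 4 of D1709A was the lowest mutant array and array 4 of WT DICER1 the highest wild-type array. E2f6 was higher by 0.22 (SE 0.08, adjusted p = 0.0168), and by 0.34 (adjusted p = 1.56e-11) without both arrays 4. Its call was lost without WT DICER1 array 2 (adjusted p = 0.0589) or array 5 (0.0502), and it was not called within the PGKnvA arrays (0.14, adjusted p = 0.0545). E2f4 was higher by 0.21 and E2f7 by 0.13, E2f1 was lower (-0.20), as were E2f5 (-0.19) and E2f3 (-0.17; -0.03 in its second probe set), and E2f2 and E2f8 were not called (-0.03 and -0.06).

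The 5 mutants were then each compared with WT DICER1. With the vector term, D1709A, E1705K and D1810Y are set against the 4 ENvA WT DICER1 arrays, and D1709N and E1813Q against the 2 PGKnvA arrays. Both WT DICER1 means are equal within 7.5e-05. Mutants under 1 vector thus share their WT DICER1 arrays, so values are given side by side and shared calls are not counted as support. D1709A had 7 members higher and 17 lower (all genes: 24.1% and 21.7%, or 3365 and 3026). Without both arrays 4 these were 14 and 17 (all genes: 4115 and 3605). D1709N had 10 higher and 14 lower (all genes: 21.5% and 18.5%, or 2995 and 2581). Without both arrays 4 these were 14 and 17 (all genes: 3659 and 3152). Fitted on the arrays of both groups only, it had 6 higher (all genes: 2317). E1705K had 10 higher and 16 lower (all genes: 27.3% and 20.7%, or 3810 and 2890). Without both arrays 4 these were 14 and 19 (all genes: 4367 and 3404). D1810Y had 8 higher and 22 lower (all genes: 28.5% and 25.2%, or 3980 and 3521). Without both arrays 4 these were 11 and 24 (all genes: 4457 and 3931). E1813Q had 4 higher and 23 lower (all genes: 21.1% and 19.5%, or 2942 and 2719). Without both arrays 4 these were 6 and 25 (all genes: 3583 and 3323), and on centred arrays 2 and 26 (all genes: 2480 and 3066). The lower share of members was above that of all genes in each mutant, from 28.6% in D1709N to 46.9% in E1813Q. Member medians were -0.06 in D1709A, -0.01 in D1709N, -0.06 in E1705K, -0.11 in D1810Y and -0.15 in E1813Q. In D1810Y, 8 of 10 ES cell markers were lower and 2 higher (list mean 11.86, against 12.04 with WT DICER1) and 4 of 5 neural markers were higher; their part in the result was not tested.

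**Figure D5:**
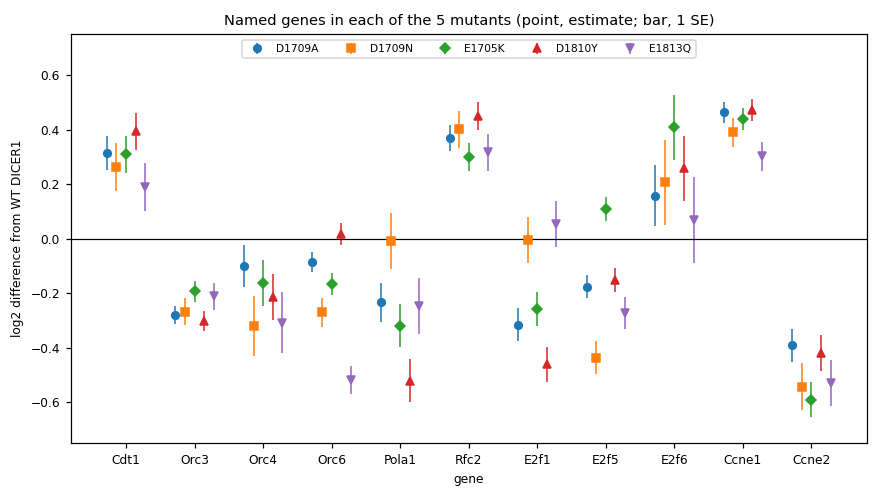
Log2 difference from WT DICER1 (point) with 1 SE (bar) for 11 genes in each of the 5 mutants, each against the WT DICER1 arrays of its own vector. Ccne1 and Rfc2 lie above 0 and Ccne2 and Orc3 below 0 in each mutant, while Orc6, Pola1, E2f1 and E2f5 spread widely.

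Ccne1 read 12.30, 12.29, 12.25 and 12.11 in D1709A, 12.16 and 12.16 in D1709N, 12.18, 12.25 and 12.21 in E1705K, 12.27, 12.27 and 12.21 in D1810Y and 12.07 and 12.09 in E1813Q. Its difference from WT DICER1 was 0.46 in D1709A (SE 0.04, adjusted p = 4.94e-10), 0.39 in D1709N (SE 0.05, adjusted p = 2.77e-06), 0.44 in E1705K (SE 0.04, adjusted p = 3.26e-09), 0.47 in D1810Y (SE 0.04, adjusted p = 7.22e-10) and 0.30 in E1813Q (SE 0.05, adjusted p = 6.78e-05). E1813Q was the lowest for this gene and lay below every array of the other mutants. Ccne2 read 9.66, 9.64, 9.57 and 9.61 in D1709A, 9.52 and 9.42 in D1709N, 9.48, 9.28 and 9.50 in E1705K, 9.60, 9.54 and 9.63 in D1810Y and 9.54 and 9.42 in E1813Q. Its difference was -0.39, -0.54, -0.59, -0.42 and -0.53 in that order (adjusted p from 5.27e-08 to 2.2e-05). Rfc2 differed by 0.37, 0.40, 0.30, 0.45 and 0.32 in the same order (adjusted p from 8.06e-08 to 0.000569).

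Other genes varied more from mutant to mutant. Pola1 read 9.66, 9.67 and 9.74 in D1810Y, 9.89, 9.89 and 9.90 in E1705K and 10.31 and 10.10 in D1709N. Its difference from WT DICER1 was -0.52 in D1810Y (SE 0.08, adjusted p = 4.49e-06) and -0.32 in E1705K (SE 0.08, adjusted p = 0.0016), and it was not called in D1709N (-0.01). E2f1 read 10.08, 10.04 and 9.99 in D1810Y, 10.14, 10.14, 10.05 and 10.39 in D1709A, and 10.54 and 10.55 in E1813Q. The D1709A arrays other than array 4 overlapped those of D1810Y and lay below those of E1813Q, and E2f1 differed from WT DICER1 by -0.46 in D1810Y (SE 0.06, adjusted p = 1.29e-06), -0.32 in D1709A (SE 0.06, adjusted p = 0.000101) and 0.05 in E1813Q, where it was not called. Orc6 read 10.94 and 11.00 in E1813Q and 11.51, 11.49 and 11.52 in D1810Y, with differences of -0.52 (SE 0.05, adjusted p = 3.06e-08) and 0.02, the latter not called. E2f5, a repressor E2F, read 10.30 and 10.15 in D1709N and 10.80, 10.75 and 10.77 in E1705K, with differences of -0.44 (SE 0.06, adjusted p = 2.52e-06) and 0.11, the latter not called. E2f6 read 10.26, 10.19 and 10.27 in E1705K (0.41, SE 0.12, adjusted p = 0.00618) and was not called in D1709A (0.16), where it was 0.45 without both arrays 4. No test compared one mutant with another.

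Further genes of the pathway in the mutants against WT DICER1 came from the same lists. Of 28 fork and licensing genes 19 were lower and 5 higher, with Ticrr (-0.85), Pole4, a small polymerase epsilon subunit (-0.46), and Dtl, which marks Cdt1 for destruction (-0.40), lowest. Of 21 retinoblastoma and E2F regulators 7 were higher and 6 lower; Ccnd2 was higher by 1.03, Ccnd1 by 1.02 and Mycn by 0.51. Cdkn1c (0.46) and Cdkn2d (0.27) were higher among 5 inhibitors, and of 21 G2 and M phase genes 11 were lower and 6 higher. Of the 14 nucleotide and chromatin genes 7 were lower, among them Rrm2b (-0.55) and Slbp (-0.45), and 2 higher. Of 10 ES cell markers 7 were lower and 2 higher, and of 7 trophoblast markers 4 were higher and 2 lower; their part in the result was not tested.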

How the data were processed

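Expression was measured on Affymetrix Mouse Gene ST arrays in 28 samples of 9 groups, from total RNA (Qiagen miRNeasy) labelled with an Ambion WT kit, per the labels' protocols. The deposited values are log2 probe set levels that the authors obtained with RMA and Partek 6.6, per the submitters' processing notes. Precision is limited by the number of arrays.

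Of 35556 probe sets, 21789 carry 1 gene symbol, 1621 several and 12146 none; those with 1 symbol were used, 1 probe set a gene (19938 genes). Genes whose mean was under the 30th percentile (6.42) were left out, which left 13956. One linear model with a term for each group and for the PGKnvA vector was fitted over all 28 arrays in limma 3.58.1 (R 4.3.3) with a mean-variance trend (18 residual degrees of freedom). Only WT DICER1 has arrays under both vectors. The vector term therefore sets D1709N and E1813Q against its 2 PGKnvA arrays and every other group against its 4 ENvA arrays. A gene was called at a Benjamini-Hochberg adjusted p under 0.05 over all genes tested. The fit was tested on simulated data. Promoter letters and figures used Python 3.11.15, numpy 2.4.6, pandas 2.3.3 and matplotlib 3.10.9.

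Values by array are given for up to 4 called members each way in the 3 comparisons of the Dicer lines, of WT DICER1 with eGFP and of the mutants with WT DICER1, and up to 2 each way elsewhere. Of each other list up to 3 called genes are named, except for 4 retinoblastoma and E2F regulators in WT DICER1 against eGFP. The members and lists were chosen with earlier results of these data known. Leaving out both arrays 4 of D1709A and WT DICER1 was chosen after seeing the data.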

Additional observations from a re-analysis of the deposited data

Results flagged for a closer look

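In groups of 4 to 10 arrays, 1 array lay far from the others for some members, by Dixon's criterion at 95%; chance alone gives about 1 such value in 20 groups. Only D1709A and WT DICER1 have 4 arrays or more, so no other group was examined. There were 10 such values among 98 pairs of member and group, and all 10 were array 4 of D1709A or of WT DICER1. Both arrays 4 deviate by equal amounts in opposite directions. The values are therefore not independent, and the rate of 1 in 20 cannot be set against them. In D1709A the log2 level of array 4 stood apart for Mcm7 (12.34, others 12.42 to 12.43), Orc2 (10.72, others 10.95 to 10.97), Orc4 (9.94, others 9.62 to 9.66) and E2f7 (9.63, others 9.84 to 9.87). In WT DICER1 it stood apart for Mcm5 (11.92, others 11.75 to 11.81), Orc2 (11.16, others 10.90 to 11.00), Pola2 (10.68, others 10.62 to 10.64), E2f1 (10.29, others 10.48 to 10.57), E2f4 (11.16, others 10.86 to 10.97) and E2f6 (10.27, others 9.62 to 9.84).

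The difference between the untransduced lines, Dicer-null minus Dicer WT, differed from that of eGFP vector minus WT DICER1 for 26 members, by limma's test of the difference itself. The difference, on the log2 scale, was negative for 13 members: Pola1 (-0.71), Cdt1 (-0.49), Orc4 (-0.46), Orc5 (-0.37), Rfc2 (-0.33), Rrm2 (-0.32), Pold1 (-0.32), Gins1 (-0.26), Mcm7 (-0.25), Mcm10 (-0.25), Mcm6 (-0.24), Pola2 (-0.19) and Pole (-0.13). It was positive for 13: Ccne2 (0.44), E2f7 (0.41), Ccne1 (0.39), E2f3 (0.34), E2f5 (0.31), Orc2 (0.30), Pcna (0.27), Cdc6 (0.26), Orc3 (0.24), Cdk2 (0.20), Orc6 (0.18), Cdc25a (0.17) and Rfc1 (0.13). With the array sets as a block, 12 stayed positive and 12 negative, Pola2 (adjusted p = 0.0558) and Rfc1 (adjusted p = 0.0703) losing their calls. All genes then gave 3192 positive and 2307 negative, in place of 3448 and 2532. With the replicate number as a block there were 11 and 12 members (all genes: 3103 and 2251). Adjusted p-values without a block ran from 1.33e-06 to 0.0407.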

How the results depend on the processing

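Over the 60 results for single named genes, 1276 of 1292 alternatives kept the call and its direction, 16 lost the call and 0 reversed. The 60 were picked as the called members with the largest changes in these data, so these counts do not cover members with smaller changes. The other choices tried were the vector term, centring, the trend, the filter on low values, all probe sets averaged, only the arrays compared, and the array sets as a block; none of these moved the total of called members in a comparison by over 1.5 times. Counts in 1 direction moved more, and those of all genes moved with them. Centring took the members lower with eGFP from 5 to 9 (all genes: 3823 to 4897). It took those higher in E1813Q from 4 to 2 (all genes: 2942 to 2480). Using only the arrays compared took those higher in D1709N from 10 to 6 (all genes: 2995 to 2317) and in E1813Q from 4 to 2 (all genes: 2942 to 2369). Requiring a change of 0.26 as well left 21 members called between the Dicer lines, 15 for eGFP and 19 for WT DICER1 against eGFP. It left 12 for the mutants against eGFP, 5 against WT DICER1, 6 for D1709A, 11 for D1709N, 8 for E1705K, 8 for D1810Y and 14 for E1813Q. It left 15 for WT DICER1 against the Dicer WT line and 16 for the difference of effects. Fewer pass because the change itself is limited, and how many of all genes pass was not counted. Leaving out 1 array at a time gave 29 to 34 called members between the Dicer lines, 24 to 29 for eGFP, 34 to 39 for WT DICER1 against eGFP, 30 to 36 for the mutants against eGFP, 34 to 38 against WT DICER1, 21 to 26 for D1709A, 16 to 26 for D1709N, 23 to 29 for E1705K, 26 to 33 for D1810Y, 20 to 30 for E1813Q, 27 to 35 for WT DICER1 against the Dicer WT line and 21 to 30 for the difference. Counts of all genes with 1 array left out are not given, so these ranges cannot be told apart from a change in calls over all genes. E2f2 lost its call without eGFP array 3 or WT DICER1 array 4, and E2f6 without WT DICER1 array 2 or 5. The cause of these losses was not tested.

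With the replicate number as a block, 9 members were higher and 22 lower in the mutants than with WT DICER1 (31 in all), and E2f6 lost its call (adjusted p = 0.081, limma). Over all genes, 3847 were higher and 3238 lower in that fit, in place of 4512 and 3871. The labels do not say that arrays with the same number belong together. Of 88 pairs of same-numbered arrays, 16 correlated above 0.1 (median -0.011, other numbers 0.003), and 7 arrays correlated best with their own number. Correlations of same-numbered pairs ran from -1 to 0.64. The exact relations in the deposited values force some same-numbered arrays to deviate in opposite directions. These correlations therefore cannot decide whether the numbers pair arrays.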
